A study of Mus musculus with 2 samples.

Results

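The cells described here are the insulin-only cells of a control library of mouse pancreatic endocrine cells. They are droplets in which Ins1 and Ins2, the mouse insulin genes, together gave at least 5% of the UMIs (unique molecular identifiers, each counting 1 captured transcript), while glucagon (Gcg), somatostatin (Sst) and pancreatic polypeptide (Ppy) each gave under 5%. Of 4219 control cells with at least 1000 UMIs, at least 500 detected genes and at most 15% of UMIs from mitochondrially encoded genes, 205 met that rule, among 12450 such cells in both libraries. The same limits gave 1851 glucagon-only, 733 somatostatin-only and 514 pancreatic polypeptide-only (PP-only) control cells, while 710 control cells passed the limit for more than 1 hormone and 206 for none. Members were chosen by the shares of insulin, Gcg, Sst and Ppy UMIs in each cell, so the hormone values are a description and not a finding.

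The study removed Isl1, a LIM-homeodomain transcription factor, from endocrine cells by Neurod1 Cre, a recombinase named for Neurod1, a gene active in the endocrine lineage. Isl1CKO mice were Neurod1 Cre/+; Isl1f/f, with both Isl1 alleles floxed. Control mice were Neurod1 Cre/+; Isl1f/+, so they also carried Cre, 1 floxed Isl1 allele and the tdTomato reporter, and no mice without Cre or with 2 unfloxed alleles were analysed here. Mice were 1 month old, islets were dissociated in the presence of actinomycin D (an inhibitor of transcription), tdTomato-positive cells were sorted, and 3 samples per genotype were pooled into 1 droplet library each. With 1 library per genotype there is no replicate of either, so no test was made. Every interval below is a 95% interval of counting error alone, and cells of 1 pool are not replicates of a mouse or a genotype.

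Beta cells are the insulin source of the islet. Glucose enters mouse beta cells through the transporter GLUT2 (Slc2a2) and is broken down. The ATP it yields closes KATP channels, and the calcium that follows releases granules in which proinsulin has been cut to insulin by prohormone convertases. Young beta cells gain Ucn3, Mafa and G6pc2 as they mature, and the factors Pdx1, Nkx6-1 and Isl1 are known to maintain insulin transcription. Mice carry a pair of insulin genes: Ins2, which matches the insulin gene of other mammals, and Ins1, a copy that arose by retroposition.

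The control library held 48685758 UMIs and the Isl1CKO library 86086781, and the 205 insulin-only cells held 4284353 of the control UMIs. No insulin-only barcode passed the filter in both libraries, although 8 other barcodes did. Scrublet, a doublet caller, marked 6 of the 205 insulin-only cells, but it failed in the Isl1CKO library, where it marked 0 of 8231. The control label names males only, yet 27 insulin-only cells (13.2%) carried UMIs of Xist, the RNA of the inactive X chromosome, without Y-linked UMIs. Another 107 cells (52.2%) carried Y-linked UMIs without Xist, 1 carried both and 70 carried neither. Over all control cells, 973 of 4219 (23.1%) carried Xist without Y-linked UMIs, so the control pool did not match its label. Values from Y-linked and Xist cells are given where they bear on a difference of at least 2-fold.

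Insulin made up a median of 61.3% of the UMIs of an insulin-only cell, with a lowest value of 5.15%, quartiles of 42.9% and 70.5% and a highest value of 90.6%. There were 22 cells from 5 to 20% insulin, 25 from 20 to 40%, 51 from 40 to 60%, 84 from 60 to 75% and 23 above that. The 5 members nearest the limit had 5.15, 5.57, 6.15, 6.77 and 7.02% insulin, and the 5 nearest cells outside it had 4.35, 4.00, 3.38, 3.10 and 2.87%. The median cell had 19828 UMIs (range 1133 to 84964) and 2882 detected genes, and 8 cells had under 3000 UMIs. Once 8 hormone genes were set aside, a median of 6858 UMIs remained for all other transcripts. Iapp, the amyloid peptide co-secreted with insulin, gave a median of 4.06% of UMIs.

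The other islet hormones were nearly absent from most of these cells. Median shares were 0.0582% for Gcg, 0.00963% for Sst and 0.0357% for Ppy. In 71795 control barcodes of 10 to 100 UMIs, which hold free RNA rather than cells, the same 3 genes gave 15.9, 2.82 and 7.46% of UMIs. A cell would reach the median shares if 0.366, 0.341 and 0.479% of its UMIs were free RNA. The part of free RNA in these shares was not tested. A minority held more: 19 cells had at least 1% Ppy, 8 had at least 1% Sst and 3 had at least 1% Gcg. Among 238 control cells at the insulin limit, 21 were also at the Gcg limit, 10 at the Sst limit and 11 at the Ppy limit, and these were not members.

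**Figure D1:**
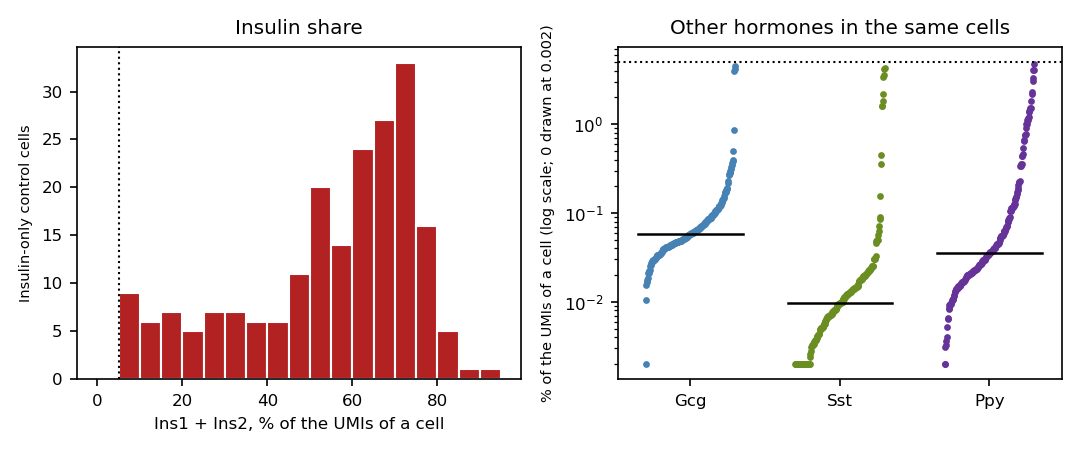
Left, number of the 205 control insulin-only cells by insulin (Ins1 and Ins2) as a percent of their UMIs; right, Gcg, Sst and Ppy as a percent of UMIs in each of the same cells, sorted, on a log scale with cells at 0 drawn at the bottom, bars for medians and dotted lines for the 5% limit. Insulin had a median of 61.3%, and the medians of Gcg, Sst and Ppy lay at or below 0.0582%.

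Ins1 gave a median of 12.0% of all UMIs and Ins2 49.7%, so that Ins1 made up a median of 20.04% of insulin UMIs (quartiles 13.3 and 24.1%). Free RNA in the same library had an Ins1 share of 19.3%. The share ran from 0.411% to 100%, and the cells far from the median were mostly those with less insulin. It lay outside 10 to 40% in 43 of 205 cells (21.0%, interval 15.6 to 27.2): in 26 of the 47 cells under 40% insulin (55.3%) and 17 of the 158 cells at or above it (10.8%). The 10 to 40% range was set after the values were seen. Every cell held at least 134 insulin UMIs, so shares of this kind were not set by a handful of counts.

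At the extremes, 6 cells took over 50% of their insulin UMIs from Ins1 and 7 took under 2%. The Ins1 and Ins2 UMIs of the 6 Ins1-rich cells were 782 and 0, 2684 and 3, 364 and 3, 1095 and 29, 3030 and 353, and 320 and 210. All 6 lay under 40% insulin, and their Slc2a2 UMIs were 0 in 5 cells and 2 in the other. Their Iapp UMIs were 510, 2096, 1065, 2899, 466 and 380 in the same order. The first of them was marked as a doublet by Scrublet, and the sixth held 4.7% Ppy and 1.6% Sst. The 7 cells at the other end had 2 and 485, 11 and 2483, 15 and 2138, 16 and 1456, 8 and 611, 58 and 3758, and 59 and 3187 Ins1 and Ins2 UMIs. They had 0 or 1 Slc2a2 UMI each and 93 to 1729 Iapp UMIs, so cells at both ends had Iapp transcripts and few transcripts of the glucose transporter.

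**Figure D2:**
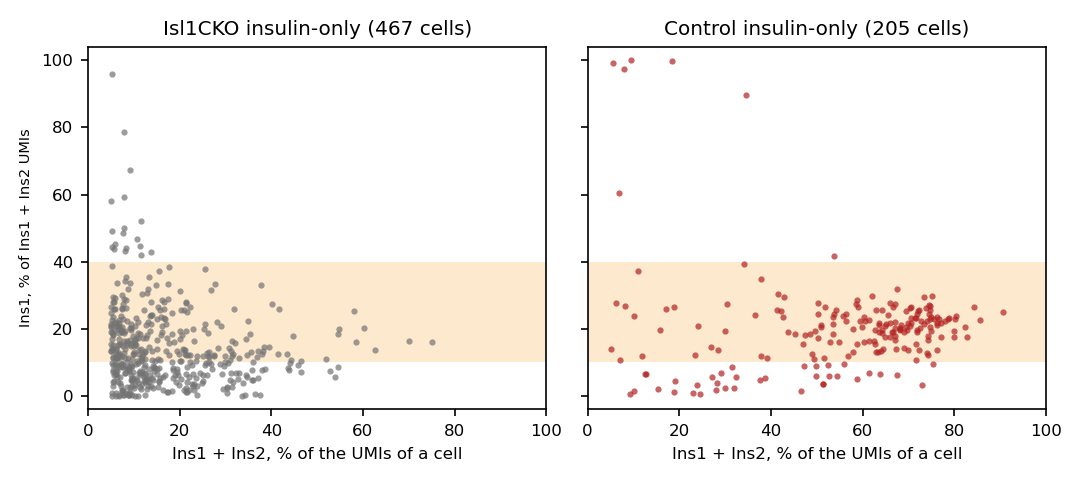
Ins1 as a percent of insulin UMIs against insulin as a percent of all UMIs, 1 point per insulin-only cell of the Isl1CKO (left) and control (right) libraries, with 10 to 40% Ins1 shaded. Most control cells above 40% insulin lay near an Ins1 share of 20.04%, the median over all control insulin-only cells, and the 6 control cells above 50% Ins1 all held under 40% insulin.

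For comparisons between groups, UMIs were summed over the cells of a group and given as CPM (counts scaled to 1000000 per group) after TMM scaling, which sets the bulk of genes equal between groups. That matters here because insulin alone filled most of the insulin-only UMIs. A gene was measured where either group had at least 20 CPM and 20 UMIs, and a difference of at least 2-fold was counted. Against glucagon-only cells, 359 of 4977 genes were at least 2-fold higher in insulin-only cells (7.21%) and 302 at least 2-fold lower (6.07%). Against somatostatin-only cells, 248 of 4891 were higher (5.07%) and 243 lower (4.97%). Against PP-only cells, 274 of 4863 were higher (5.63%) and 192 lower (3.95%). The median log2 ratios over all measured genes were 0.03, 0.04 and 0.00. Counts of listed genes in these 3 comparisons are to be read beside these shares over all measured genes. Of 4573 genes measured in all 3 comparisons, 122 were at least 2-fold higher in insulin-only cells in each and 34 lower. The 3 comparisons share the insulin-only cells. With CPM left unscaled the bulk of genes moved by −0.74, −1.09 and −0.40 on the log2 scale and the shared counts were 36 higher and 247 lower. Y-linked cells alone gave 124 higher and 41 lower, and Xist cells alone 70 and 50.

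Of the 8 beta cell markers, all 8 were at least 2-fold higher in insulin-only than in glucagon-only and PP-only cells, and 7 of 8 than in somatostatin-only cells, with median log2 ratios of 7.24, 7.62 and 7.65. Ins1 and Ins2 belong to the rule itself, so their part in these counts and medians was fixed in advance. Slc2a2 stood at 512 CPM in insulin-only cells, against 0.446, 2.64 and 0.901 CPM in glucagon-only, somatostatin-only and PP-only cells. The groups were far apart, with log2 ratios of 10.01 (9.24 to 11.30), 7.53 (6.97 to 8.32) and 8.89 (7.92 to 10.78). Ucn3, which encodes urocortin 3, a peptide secreted with insulin by mature mouse beta cells, stood at 153 CPM in insulin-only cells, against 0.347, 0.264 and 0.721 CPM in glucagon-only, somatostatin-only and PP-only cells. G6pc2, the islet glucose-6-phosphatase, stood at 386 CPM in insulin-only cells, against 6.44, 1.72 and 1.44 CPM in glucagon-only, somatostatin-only and PP-only cells. Iapp stood at 69650.1 CPM in insulin-only cells, against 1938, 37001 and 9566 CPM in glucagon-only, somatostatin-only and PP-only cells, and was the marker with the smallest gap, at a log2 ratio of 0.91 (0.90 to 0.92) to somatostatin-only cells. The label of beta cells therefore held by markers the rule had not used.

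Counted by cell, Slc2a2 had at least 1 UMI in 155 of 205 insulin-only cells (75.6%, 69.1 to 81.3), against 0.486% of glucagon-only cells, a type that should lack it. With every cell thinned to 2000 UMIs outside hormone genes, which left out 14 insulin-only and 68 glucagon-only cells, the shares were 63.9% and 0.168%. G6pc2 was found in 77.1% of insulin-only cells (58.1% thinned), against 6.1% of glucagon-only cells (2.24% thinned). Ucn3 was found in 53.2% of insulin-only cells (32.5% thinned), against 0.378% of glucagon-only cells (0.168% thinned). A cell without a UMI of these genes is not shown to lack them at this depth. In Y-linked cells the log2 ratios of Slc2a2 over the 3 other groups were 9.48, 7.24 and 9.43, and in Xist cells 8.67, 6.93 and 7.35.

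**Figure D3:**
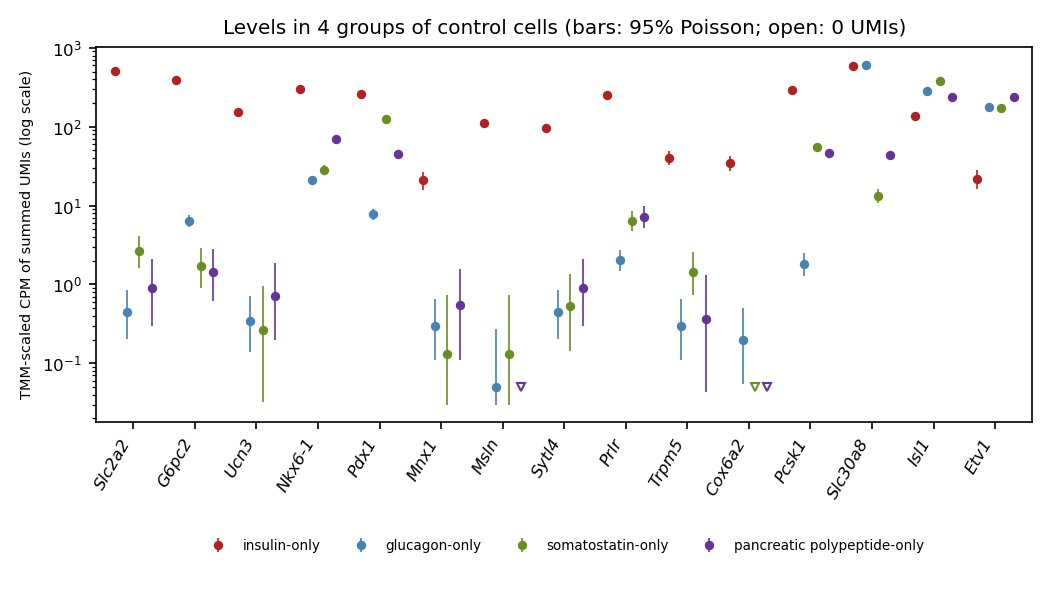
Summed levels of beta cell marker genes and regulators in CPM on a log scale, for the insulin-only, glucagon-only, somatostatin-only and PP-only cells of the control library, with 95% counting intervals and open triangles for groups at 0 UMIs. Slc2a2, G6pc2 and Ucn3 lay at 512, 386 and 153 CPM in control insulin-only cells and at or below 6.44 CPM in each other control group.

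Upstream sequences of the marker genes are shown because transcripts of these genes set insulin-only cells apart from the other groups. Sequences are from RefSeq (GRCm38.p6), the 250 bases before the annotated start, 5′ to 3′ on the gene's own strand. Capitals mark matches on either strand to 3 short motifs: TAAT (its reverse strand reads ATTA), the core bound by homeodomain proteins such as Pdx1, Nkx6-1 and Isl1; CATCTG (reverse CAGATG), an E-box of the kind bound by Neurod1; and TGCTGA (reverse TCAGCA), the core recognised by the large Maf factors. Of the 8 markers 7 had an entry, Ins2 had none, and the windows of Nkx6-1 and Pdx1 are not shown because they lie inside an annotated gene. The windows were chr19:52264047-52264296 (plus strand) for Ins1, chr6:142298175-142298424 (plus strand) for Iapp, chr13:3945350-3945599 (minus strand) for Ucn3, chr3:28697653-28697902 (plus strand) for Slc2a2 and chr2:69210823-69211072 (plus strand) for G6pc2.

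Ins1: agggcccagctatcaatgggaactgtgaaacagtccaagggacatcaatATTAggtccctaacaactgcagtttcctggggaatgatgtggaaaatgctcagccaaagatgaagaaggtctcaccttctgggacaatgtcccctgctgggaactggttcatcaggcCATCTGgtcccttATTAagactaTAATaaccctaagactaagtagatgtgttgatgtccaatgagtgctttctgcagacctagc
Iapp: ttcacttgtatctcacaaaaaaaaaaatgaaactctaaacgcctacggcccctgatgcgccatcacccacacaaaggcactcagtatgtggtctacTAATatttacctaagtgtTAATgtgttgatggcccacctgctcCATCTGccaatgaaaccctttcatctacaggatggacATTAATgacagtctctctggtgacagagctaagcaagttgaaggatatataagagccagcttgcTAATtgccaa
Ucn3: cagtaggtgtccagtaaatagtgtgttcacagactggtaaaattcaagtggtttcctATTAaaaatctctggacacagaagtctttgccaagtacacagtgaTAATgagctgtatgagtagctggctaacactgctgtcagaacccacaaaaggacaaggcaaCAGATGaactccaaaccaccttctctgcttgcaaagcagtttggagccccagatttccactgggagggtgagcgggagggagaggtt
Slc2a2: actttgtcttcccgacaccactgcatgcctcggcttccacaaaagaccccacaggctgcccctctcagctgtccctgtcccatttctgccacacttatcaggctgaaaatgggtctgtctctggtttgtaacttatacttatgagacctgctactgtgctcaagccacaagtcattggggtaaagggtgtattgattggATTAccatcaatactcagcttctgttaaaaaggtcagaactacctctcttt
G6pc2: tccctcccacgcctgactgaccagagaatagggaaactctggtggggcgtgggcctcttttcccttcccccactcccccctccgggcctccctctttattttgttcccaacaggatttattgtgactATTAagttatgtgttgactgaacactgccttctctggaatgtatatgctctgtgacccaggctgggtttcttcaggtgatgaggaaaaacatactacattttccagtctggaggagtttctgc

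TAAT matched 3 times in the Ins1 window, 5 in Iapp, 2 in Ucn3, 1 in Slc2a2 and 1 in G6pc2, where a stretch reading ATTAAT counts once on each strand. CATCTG matched once each in Ins1, Iapp and Ucn3, and TGCTGA in none of the 5. Over 32851 annotated windows of this length 54.9% held TAAT, 14.4% CATCTG and 16.1% TGCTGA, so single matches are common. A match is a string of letters and not a measured site, and binding was not measured.

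Among transcription factors of beta cells, Pdx1, Nkx6-1 and Mnx1 were at least 2-fold higher than in each of the other groups. Of the measured factors, 6 of 18 were at least 2-fold higher than in glucagon-only, 6 of 18 than in somatostatin-only and 8 of 17 than in PP-only cells (medians 0.45, 0.32 and 0.88). Pdx1, a master factor of pancreas and insulin transcription, stood at 263 CPM in insulin-only cells, against 7.73, 126 and 45.2 CPM in glucagon-only, somatostatin-only and PP-only cells. Its gap to somatostatin-only cells was the narrowest, a log2 ratio of 1.06 (0.92 to 1.20), which was −0.03 without TMM scaling. Nkx6-1, which represses alternative endocrine fates, stood at 299.8 CPM in insulin-only cells, against 20.8, 28.5 and 70.8 CPM in glucagon-only, somatostatin-only and PP-only cells. Mnx1, a homeodomain factor needed for beta cell fate, stood at 20.9 CPM in insulin-only cells, against 0.297, 0.132 and 0.541 CPM in glucagon-only, somatostatin-only and PP-only cells.

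Mafa, Isl1 and shared islet factors followed different patterns. Mafa, the Maf factor of adult mouse beta cells, had 29 UMIs in insulin-only cells (10.6 CPM, 7.11 to 15.2), against 0 in glucagon-only, 0 in somatostatin-only and 1 in PP-only cells. This is below the limit for a measured gene. By a floor of 3 UMIs per group it was at least 71.4-fold higher than in glucagon-only and at least 26.8-fold higher than in somatostatin-only cells, with a log2 ratio over PP-only cells of 4.93 (3.29 to 11.23). It was seen in 10.2% of insulin-only cells, or 2.62% after thinning. Isl1 stood at 135 CPM in insulin-only cells, against 284, 381 and 235 CPM in glucagon-only, somatostatin-only and PP-only cells, the lowest of the 4 groups, with log2 ratios of −1.06 (−1.22 to −0.92), −1.49 (−1.65 to −1.34) and −0.79 (−0.96 to −0.63). Neurod1, the gene named in the Cre genotype of these mice, stood at 299 CPM in insulin-only cells, against 235, 127 and 129 CPM in glucagon-only, somatostatin-only and PP-only cells. Pax6 (0.44, 0.26 and 0.31) and Foxa2 (−0.21, 0.38 and −0.05), factors shared by islet cells, had log2 ratios within 2-fold in all 3 comparisons.

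Glucose handling differed at a few steps rather than along glycolysis. Of 16 measured genes, 5 were at least 2-fold higher in each comparison and 0 lower (medians 0.22, 0.24 and 0.40). Besides Slc2a2 and G6pc2, Pcx, the pyruvate carboxylase that feeds anaplerosis, stood at 23.1 CPM in insulin-only cells, against 3.82, 3.96 and 4.68 CPM in glucagon-only, somatostatin-only and PP-only cells. Mlxipl, the glucose-sensing factor ChREBP, stood at 105 CPM in insulin-only cells, against 8.37, 66.2 and 23.2 CPM in glucagon-only, somatostatin-only and PP-only cells, and was within 2-fold of somatostatin-only cells. Gpd2, the mitochondrial glycerol phosphate dehydrogenase of the NADH shuttle, stood at 54.5 CPM in insulin-only cells, against 60.1, 11.1 and 21.4 CPM in glucagon-only, somatostatin-only and PP-only cells, level with glucagon-only cells. The glycolytic enzymes Gapdh (−0.18, −0.02 and −0.13), Tpi1 (−0.17, 0.06 and −0.03) and Aldoa (0.18, −0.13 and −0.07) had log2 ratios close to 0. Hk1, the low-Km hexokinase that mature beta cells do not express, had 0 UMIs in insulin-only cells, which allows up to 1.1 CPM, against 8.82, 0.132 and 5.95 CPM in glucagon-only, somatostatin-only and PP-only cells.

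Channels and pumps went both ways, with 3, 3 and 4 of 13 measured genes higher and 3, 3 and 2 lower (medians −0.03, −0.02 and 0.43). Trpm5, a calcium-activated cation channel, stood at 40.3 CPM in insulin-only cells, against 0.297, 1.45 and 0.36 CPM in glucagon-only, somatostatin-only and PP-only cells. Atp2a2 (394 CPM in insulin-only cells, against 112, 153 and 101 CPM in glucagon-only, somatostatin-only and PP-only cells) and Atp2a3 (76.5 CPM in insulin-only cells, against 31.7, 32.1 and 17.3 CPM in glucagon-only, somatostatin-only and PP-only cells), the SERCA pumps that fill the endoplasmic reticulum with calcium, were both higher in all 3 comparisons. Abcc8, the sulfonylurea receptor of the KATP channel, stood at 200.2 CPM in insulin-only cells, against 186, 271 and 149 CPM in glucagon-only, somatostatin-only and PP-only cells, and the calcium channel gene Cacna1d at 56.7 CPM in insulin-only cells, against 58.1, 35.9 and 37.5 CPM in glucagon-only, somatostatin-only and PP-only cells. For both, every log2 ratio was within 2-fold. On the low side were Scn3a, a sodium channel (19 CPM in insulin-only cells, against 44.8, 64.2 and 41.4 CPM in glucagon-only, somatostatin-only and PP-only cells), and Itpr1, an IP3 receptor (42.1 CPM in insulin-only cells, against 219, 139.6 and 51.2 CPM in glucagon-only, somatostatin-only and PP-only cells), although Itpr1 was within 2-fold of PP-only cells.

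Several cell surface receptors stood apart. Prlr, the prolactin receptor that drives beta cell growth in pregnancy, stood at 250.04 CPM in insulin-only cells, against 2.03, 6.46 and 7.21 CPM in glucagon-only, somatostatin-only and PP-only cells. Ffar1, the long-chain fatty acid receptor GPR40, stood at 67.7 CPM in insulin-only cells, against 21.4, 0.396 and 15.9 CPM in glucagon-only, somatostatin-only and PP-only cells. Adra2a, the adrenergic receptor that inhibits insulin release, stood at 38.8 CPM in insulin-only cells, against 0.396, 8.97 and 0.901 CPM in glucagon-only, somatostatin-only and PP-only cells. Each of these 3 was higher than in all 3 other groups. Ffar2, a short-chain fatty acid receptor, was level, at 68.5 CPM in insulin-only cells, against 59.4, 68.9 and 62.3 CPM in glucagon-only, somatostatin-only and PP-only cells. Glp1r, the incretin receptor of beta cells, gave only 16 UMIs in insulin-only cells, against 2, 7 and 3 UMIs in glucagon-only, somatostatin-only and PP-only cells, below the limit for a measured gene. In all, 3 of 8, 4 of 6 and 4 of 6 measured receptors were at least 2-fold higher (medians 0.44, 1.68 and 1.57).

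In proinsulin processing and the secretory granule, 7, 5 and 5 of 17 measured genes were at least 2-fold higher and 4, 0 and 2 lower (medians −0.02, 0.06 and −0.01). Pcsk1, the convertase PC1/3 that starts proinsulin cleavage, stood at 294 CPM in insulin-only cells, against 1.83, 55.8 and 45.8 CPM in glucagon-only, somatostatin-only and PP-only cells. Pcsk2, the convertase that releases glucagon in alpha cells, stood at 2105 CPM in insulin-only cells, against 4371, 1958 and 2798 CPM in glucagon-only, somatostatin-only and PP-only cells, and was lower than in glucagon-only cells by a log2 ratio of −1.05 (−1.09 to −1.02). Slc30a8, the ZnT8 transporter that loads granules with the zinc of insulin crystals, stood at 594 CPM in insulin-only cells, against 601, 13.3 and 43.6 CPM in glucagon-only, somatostatin-only and PP-only cells, close to the level of glucagon-only cells, with a log2 ratio of −0.02 (−0.09 to 0.06). Chga, the granule protein chromogranin A, stood at 23893 CPM in insulin-only cells, against 7771, 7355 and 8783 CPM in glucagon-only, somatostatin-only and PP-only cells. Sytl4, the Rab27 effector granuphilin of insulin granules, stood at 96.6 CPM in insulin-only cells, against 0.446, 0.528 and 0.901 CPM in glucagon-only, somatostatin-only and PP-only cells. Of 15 measured exocytosis genes 0 were at least 2-fold higher and 1, Rab3b against somatostatin-only cells (−1.04), was lower (medians 0.20, 0.10 and 0.15). Over all measured genes 7.21, 5.07 and 5.63% were higher and 6.07, 4.97 and 3.95% lower. So few differences among 15 genes do not set this list apart.

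Genes of protein folding in the endoplasmic reticulum, where proinsulin is made, were in part higher. All 28 listed genes were measured, and 14, 4 and 4 of them were at least 2-fold higher, with 0 lower (medians 1.00, 0.53 and 0.52). Sdf2l1, a BiP-associated chaperone component, stood at 206 CPM in insulin-only cells, against 37.4, 63.1 and 68.1 CPM in glucagon-only, somatostatin-only and PP-only cells. Hyou1, a large Hsp70-family chaperone, stood at 89.3 CPM in insulin-only cells, against 29.1, 35.9 and 33.5 CPM in glucagon-only, somatostatin-only and PP-only cells. Hspa5, the chaperone BiP, stood at 952 CPM in insulin-only cells, against 479.9, 738 and 762 CPM in glucagon-only, somatostatin-only and PP-only cells, with log2 ratios of 0.99 (0.93 to 1.05), 0.37 (0.30 to 0.43) and 0.32 (0.25 to 0.39). Sdf2l1 and Hyou1 were at least 2-fold higher in every comparison and Hspa5 in none. Without TMM scaling the Hspa5 ratios over somatostatin-only and PP-only cells were −0.72 and −0.08. Of the genes of the unfolded protein response, 2 of 8, 0 of 7 and 1 of 7 were higher (medians 0.67, 0.23 and 0.45), and Ddit3, the stress factor CHOP, stood at 13.9 CPM in insulin-only cells, against 17.1, 10.3 and 16.9 CPM in glucagon-only, somatostatin-only and PP-only cells. Of 23 measured genes of oxidative phosphorylation, 2 were higher and 0 lower in each comparison (medians 0.21, 0.27 and 0.19). Over all measured genes 7.21, 5.07 and 5.63% were higher and 6.07, 4.97 and 3.95% lower, so the list as a whole did not stand apart. Among the higher genes was Cox6a2, the heart-type subunit of complex IV. Cox6a2 had 94 UMIs in insulin-only cells, against 4, 0 and 0 in glucagon-only, somatostatin-only and PP-only cells, at least 86.9-fold higher than in somatostatin-only and at least 63.7-fold higher than in PP-only cells.

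Genes known to come up late in beta cell maturation were mostly higher, with 10, 10 and 11 of 12 measured genes higher and 0 lower (medians 5.41, 5.36 and 4.56). The list holds Ucn3, Slc2a2, G6pc2, Trpm5 and Prlr, already given, and Mafa, which is not among the 12 measured. Ppp1r1a, an inhibitor of protein phosphatase 1, stood at 802 CPM in insulin-only cells, against 26.3, 211 and 48.8 CPM in glucagon-only, somatostatin-only and PP-only cells. Gjd2, which encodes connexin 36 of beta cell gap junctions, stood at 93 CPM in insulin-only cells, against 13.7, 18.5 and 24 CPM in glucagon-only, somatostatin-only and PP-only cells. Nnat, the imprinted neuronatin, stood at 177 CPM in insulin-only cells, against 11.1, 272 and 22.7 CPM in glucagon-only, somatostatin-only and PP-only cells, at least 2-fold higher than in 2 groups and lower than in somatostatin-only cells within 2-fold (−0.62 (−0.77 to −0.48)). Syt7, a calcium sensor of exocytosis, stood at 82.7 CPM in insulin-only cells, against 93.5, 69 and 77.5 CPM in glucagon-only, somatostatin-only and PP-only cells, within 2-fold in each comparison. Among 16 listed genes kept silent in mature beta cells, Ldha had 2 UMIs in insulin-only cells and Slc16a1 had 0. The 16 genes summed to 49.1 CPM in insulin-only cells, against 78.2, 55.4 and 85.4 CPM in glucagon-only, somatostatin-only and PP-only cells. Low levels of the list were therefore not particular to insulin-only cells.

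**Figure D4:**
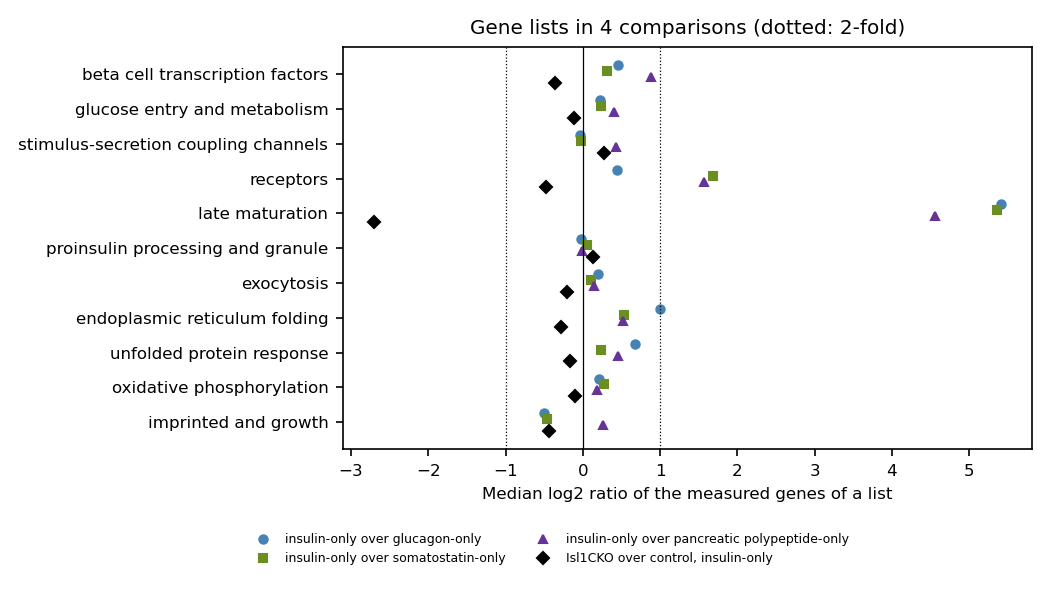
Median log2 ratio of the measured genes of each functional list, 1 symbol per comparison, for control insulin-only cells over each other control hormone group and for Isl1CKO over control insulin-only cells, with dotted lines at 2-fold. Late maturation genes had medians of 5.41, 5.36 and 4.56 within the control library and −2.70 in Isl1CKO over control.

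By the rule for genes 2-fold apart in all 3 comparisons, the leading higher genes outside these lists were Msln, Prss53, Tmem215, Pde5a, Cd79a, Bace2 and Fam151a. Msln, the surface protein mesothelin, stood at 112 CPM in insulin-only cells, against 0.0496, 0.132 and 0 CPM in glucagon-only, somatostatin-only and PP-only cells, but only 49 of 205 cells had a UMI. Prss53, a trypsin-like protease gene, stood at 172 CPM in insulin-only cells, against 0.595, 2.9 and 1.26 CPM in glucagon-only, somatostatin-only and PP-only cells. Bace2, a protease that cleaves the surface protein Tmem27 in beta cells, stood at 273 CPM in insulin-only cells, against 2.48, 8.84 and 25.2 CPM in glucagon-only, somatostatin-only and PP-only cells. Cd79a, better known as a B cell receptor subunit, stood at 97 CPM in insulin-only cells, against 2.13, 4.75 and 1.08 CPM in glucagon-only, somatostatin-only and PP-only cells and had a UMI in 101 of 205 cells. The other 8 leukocyte markers included Ptprc, Lyz2, C1qb, Cd74, Csf1r and Cd3e at 0 UMIs, Cd68 at 1 UMI, and C1qa at 86 CPM in insulin-only cells, against 128, 192 and 102 CPM in glucagon-only, somatostatin-only and PP-only cells. Ube2c also ranked high by the rule but 90.9% of its UMIs came from 2 cells.

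The genes lower than in all 3 other groups had smaller gaps. Etv1, an ETS factor, led them at 21.6 CPM in insulin-only cells, against 177, 175 and 239.8 CPM in glucagon-only, somatostatin-only and PP-only cells, with log2 ratios of −3.01 (−3.43 to −2.67), −3.00 (−3.42 to −2.64) and −3.45 (−3.87 to −3.10). The gap to each other group was about the same. Rgs4, a brake on G protein signalling, stood at 4.76 CPM in insulin-only cells, against 64.3, 38 and 26.5 CPM in glucagon-only, somatostatin-only and PP-only cells. Gria2, an AMPA glutamate receptor subunit, stood at 28.2 CPM in insulin-only cells, against 188, 82.3 and 106 CPM in glucagon-only, somatostatin-only and PP-only cells. Dbpht2 (39.5 CPM in insulin-only cells, against 343, 117 and 169 CPM in glucagon-only, somatostatin-only and PP-only cells) and Smarca1, a chromatin remodeler (51.3 CPM in insulin-only cells, against 239, 134 and 231 CPM in glucagon-only, somatostatin-only and PP-only cells), were abundant enough to be seen in 59 and 85 of 205 insulin-only cells.

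Markers of the other endocrine types were low, apart from genes with broad use. Irx1 and Irx2, alpha cell factors, stood at 4.39 CPM in insulin-only cells, against 138, 1.98 and 6.13 CPM in glucagon-only, somatostatin-only and PP-only cells, and at 8.05 CPM in insulin-only cells, against 125, 5.15 and 23.4 CPM in glucagon-only, somatostatin-only and PP-only cells. Hhex, the delta cell factor, stood at 5.49 CPM in insulin-only cells, against 3.77, 106 and 7.21 CPM in glucagon-only, somatostatin-only and PP-only cells, and Ptprz1, another delta marker, at 1.46 CPM in insulin-only cells, against 2.38, 99.9 and 4.87 CPM in glucagon-only, somatostatin-only and PP-only cells. Ttr, an abundant alpha cell transcript, stood at 2799.8 CPM in insulin-only cells, against 18485, 479 and 3267 CPM in glucagon-only, somatostatin-only and PP-only cells. Of the 10 alpha markers 9 were at least 2-fold lower than in glucagon-only cells, all 4 measured delta markers lower than in somatostatin-only cells, and 4 of 5 measured gamma markers lower than in PP-only cells. Gcg, Sst and Ppy belong to these lists and to the rule itself, so their part in these counts was fixed in advance. Pyy, a hormone of the PP family, stood at 7267 CPM in insulin-only cells, against 10158, 70310.1 and 223474 CPM in glucagon-only, somatostatin-only and PP-only cells.

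Most of these differences were also seen in the Y-linked and the Xist cells taken alone. Of the measured genes named here with a difference of at least 2-fold, 60 of 60, 55 of 56 and 54 of 54 over glucagon-only, somatostatin-only and PP-only cells stayed 2-fold in the same direction in Y-linked cells, and 56, 46 and 45 did so in Xist cells, of which only 27 were insulin-only. The exception in Y-linked cells was Txnip (0.97) over somatostatin-only cells. In Xist cells the exceptions, with their log2 ratios there, were Isl1 (−0.95), Pcsk2 (−0.97), Scn3a (−0.44) and Spp1 (0.72) over glucagon-only cells. Over somatostatin-only cells they were Atp2a2 (0.70), Atp2a3 (0.93), Gc (−0.35), Gria2 (−0.54), Npy (−0.27), Rab3b (−0.91), Scn3a (−0.82), Smarca1 (−0.99), Sparc (0.61) and Spp1 (−1.76). Over PP-only cells they were Gria2 (−0.89), Hyou1 (0.91), Insm1 (0.60), Irx2 (0.37), Neurod1 (0.82), Pnoc (0.86), Rgs4 (−0.95), Scn3a (−0.25) and Tmem27 (−0.74). Without TMM scaling, which shifts every ratio down by 0.74, 1.09 and 0.40 over glucagon-only, somatostatin-only and PP-only cells, the differences below 2-fold were Atp2a3 (0.54), Chga (0.89), Ffar1 (0.93), Hyou1 (0.88) and Txnip (0.60) over glucagon-only cells. Over somatostatin-only cells they were Atp2a2 (0.27), Atp2a3 (0.17), Chga (0.61), Hyou1 (0.23), Neurod1 (0.14), Nkx2-2 (0.12), Pdx1 (−0.03), Ppp1r1a (0.84), Sdf2l1 (0.62), Sparc (0.46), Spp1 (0.44) and Txnip (0.00), and over PP-only cells Gpd2 (0.94), Insm1 (0.93) and Neurod1 (0.82).

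Cells from outside the endocrine lineage left few traces. Markers of exocrine acinar cells summed to 64.1 CPM over 10 genes in insulin-only cells, against 191, 30.1 and 52.4 CPM in glucagon-only, somatostatin-only and PP-only cells. The 6 endothelial markers summed to 31.8 CPM in insulin-only cells, against 6.49, 6.86 and 9.73 CPM in glucagon-only, somatostatin-only and PP-only cells, and Plvap had 30 and Pecam1 8 UMIs in insulin-only cells. Of the 7 stromal markers, Sparc had 128 UMIs but 68% of them were in 1 cell, and Col1a1, Col3a1 and Dcn were at 0. The duct marker Spp1, osteopontin, had 522 UMIs (191 CPM in insulin-only cells, against 16.3, 66.4 and 252 CPM in glucagon-only, somatostatin-only and PP-only cells), of which 90.8% came from 1 cell. That cell held 6.15% insulin, 0 Pdx1 UMIs, 0 Slc2a2 UMIs and 1 tdTomato UMI. Without it the Spp1 log2 ratio over glucagon-only cells was 0.14. The part of such cells in the other results was not tested, but insulin-only cells at 40% insulin or more gave 129 genes higher and 46 lower in all 3 comparisons. tdTomato, the reporter used to sort the cells, stood at 1124 CPM in insulin-only cells, against 940.3, 1098 and 1183 CPM in glucagon-only, somatostatin-only and PP-only cells.

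A few insulin-only cells carried transcripts of dividing cells. At least 3 of 7 cell cycle genes (Mki67, Top2a, Ccnb1, Ccna2, Cdk1, Ube2c and Cenpf) were found in 7 of 205 cells (3.41%, 1.38 to 6.91), against 1 of 1851 glucagon-only, 6 of 733 somatostatin-only and 1 of 514 PP-only cells. After thinning the counts were 3 of 191 insulin-only cells, against 0 of 1783 glucagon-only, 5 of 713 somatostatin-only and 1 of 500 PP-only cells. Mki67, the usual proliferation marker, was found in 15 insulin-only cells (7.32%, 4.19% thinned), against 1.19% of glucagon-only cells (0.505% thinned). The 7 cells were not alike. The cell with most cycle UMIs, 174, was also the deepest, with 84964 UMIs and 66.7% insulin. It held 4.53% Gcg, the highest Gcg share of the 205 cells and close to the limit of the rule. The next, with 128 cycle UMIs, was the Spp1-rich cell at 6.15% insulin. The other 5 had between 5 and 21 cycle UMIs, 65.9 to 71.3% insulin and 4 to 13 Slc2a2 UMIs each. Cells were not assigned to a phase, and at this number no rate of division is given.

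Among themselves, insulin-only cells varied most in Malat1, Chga, Chgb, Ttr and Gm42418, ranked by variance over mean against genes of like mean in 191 cells thinned to 2000 UMIs outside hormone genes. Chga ran from 1 to 286 thinned UMIs per cell with a median of 88, and Chgb, chromogranin B, from 0 to 169 with a median of 11. Ttr had a median of 6 and reached 155, with 12 cells at 0. Malat1, a nuclear noncoding RNA, had a median of 26 and a highest value of 233. Rbp4 (77 cells at 0, highest 22) and Nnat (137 at 0, highest 14) were also among the first 15. Across these cells the Spearman correlation with insulin share was −0.44 for Chgb, as a description of cells that share a library.

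To set other genes against insulin content, the cells were split into tertiles of insulin share after the data were seen. The low tertile held 69 cells (5.15 to 50.9% insulin), the middle 68 (51.3 to 67.4%) and the high 68 (67.4 to 90.6%). Levels were taken as CPM relative to the UMIs outside hormone genes (also for Pyy, itself a hormone gene), because insulin itself sets the share of all other genes. Median UMIs outside hormone genes were 6653, 7438.5 and 6499.5 from low to high. Xist cells numbered 14, 10 and 3, Y-linked cells 31, 41 and 35, and Scrublet doublets 4, 1 and 1. Of 4518 measured genes, 143 were at least 2-fold higher in the high than in the low tertile (3.17%) and 173 lower (3.83%). The median of all log2 ratios was 0.04. The tertiles were cut from a continuous share, and 9, 21 and 7 cells lay within 2 percentage points of a limit.

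Late maturation genes were higher with more insulin, at 8 of 12 higher and 0 lower in the high tertile (median 1.66). Ucn3 gave 50, 321 and 546 CPM in the low, middle and high tertile, a log2 ratio of high over low of 3.40 (2.84 to 4.12). G6pc2 gave 229, 785 and 1297 CPM from low to high, a log2 ratio of 2.49 (2.20 to 2.81). Slc2a2 gave 471, 1056 and 1507 CPM from low to high, a log2 ratio of 1.67 (1.46 to 1.90). All 3 increased at each step. Cox6a2 (4.16, 51.9 and 157 CPM from low to high), Prss53 (35.4, 315 and 695), Prlr (173, 523 and 792) and Sytl4 (64.6, 198 and 314) did so too. Ero1lb, an oxidase that forms disulfide bonds in proinsulin, gave 323, 744 and 1243 CPM from low to high, and Sdf2l1 194, 415 and 616. Of the endoplasmic reticulum folding list, 5 of 28 were higher and 0 lower (median 0.68).

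Of 17 measured transcription factors, 0 were 2-fold apart between the high and the low tertile in either direction (median 0.16), beside 3.17% higher and 3.83% lower over all measured genes. Pdx1 gave 423, 614 and 473 CPM in the low, middle and high tertile, a log2 ratio of 0.16 (−0.13 to 0.45), whose interval includes 0. Nkx6-1 gave 485, 539 and 739 CPM from low to high, higher at each step, with a log2 ratio of 0.61 (0.36 to 0.86) whose interval lies above 0. The reporter tdTomato gave 2201, 2146 and 2166 CPM from low to high (−0.02 (−0.15 to 0.11)). Chgb went the other way, with 13892, 6228 and 4368 CPM from low to high, a log2 ratio of −1.67 (−1.75 to −1.59). Pyy (22622, 16300 and 1236 CPM from low to high) and Spp1 (1009.99, 57.7 and 16.9, mostly from 1 cell of the low tertile) were also lower with more insulin, as were the hormones Ppy and Sst, which the rule held below 5%. Restricting the split to cells with other hormones under 1% gave log2 ratios of 4.36 for Ucn3 and 1.75 for Slc2a2.

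**Figure D5:**
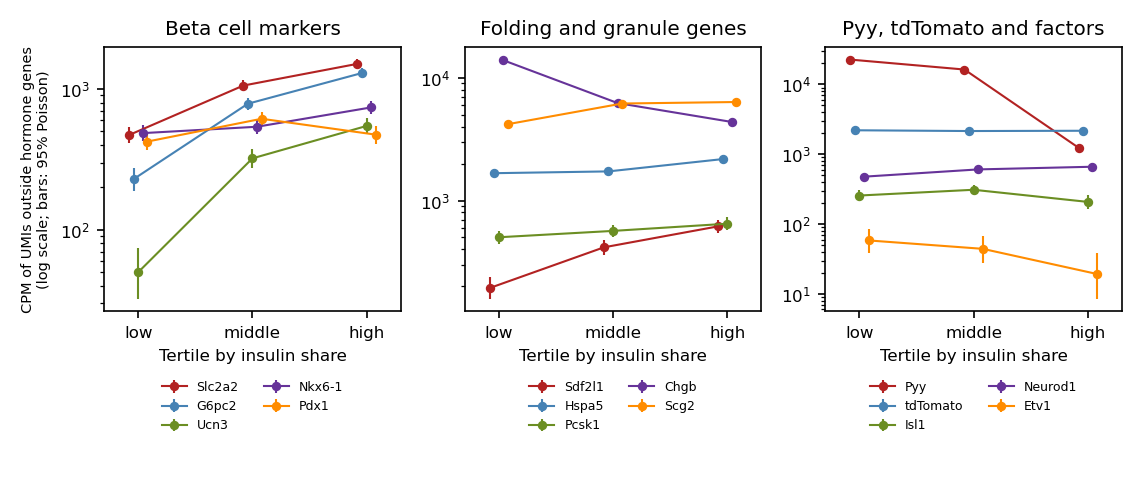
Levels of 15 genes in CPM, relative to the UMIs outside hormone genes, in the low, middle and high tertile of insulin share among control insulin-only cells, on a log scale with 95% counting intervals. Ucn3, G6pc2 and Slc2a2 were higher at each step, while Pdx1 and tdTomato had log2 ratios of 0.16 and −0.02 between the high and the low tertile.

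The same rule applied to the Isl1CKO library gave 467 insulin-only cells of 8231. Their insulin content, fixed in part by the rule, had a median of 12.6% of UMIs, against 61.3% in control insulin-only cells, and their median depth was 14645 UMIs, against 19828. Xist without Y-linked UMIs was found in 242 Isl1CKO cells (51.8%), against 27 control cells (13.2%), so the libraries also differed in sex. Isl1 itself stood at 149 CPM in Isl1CKO and 135 CPM in control insulin-only cells, a log2 ratio of 0.13 (−0.03 to 0.30). Its 3′ tags may lie outside the deleted part of the gene, so this neither checks the deletion nor measures working transcript. Of 5045 measured genes, 340 were at least 2-fold higher in Isl1CKO than in control insulin-only cells (6.74%) and 277 lower (5.49%). The median of all log2 ratios was −0.03. Without TMM scaling, the bulk of genes moved by 1.02 on the log2 scale. Differences between libraries, mice, sex and genotype cannot be told apart here.

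Beta cell markers and late maturation genes were the lists with most lower genes. Of the 8 beta markers 7 were at least 2-fold lower in Isl1CKO, and of 12 late maturation genes 10 were lower and 0 higher (median −2.70). The 8 beta markers include Ins1 and Ins2, by which the cells of both libraries were chosen. Ucn3 stood at 0.944 CPM in Isl1CKO and 153 CPM in control insulin-only cells, a log2 ratio of −7.19 (−8.48 to −6.40). G6pc2 stood at 18.6 CPM in Isl1CKO and 386 CPM in control insulin-only cells (−4.37 (−4.62 to −4.15)), and Slc2a2 at 76.3 CPM in Isl1CKO and 512 CPM in control insulin-only cells (−2.75 (−2.88 to −2.62)). Mafa had 2 UMIs in Isl1CKO and 29 in control insulin-only cells, and Cox6a2 had 0, at least 109-fold lower than the 94 UMIs in control cells. Pdx1 stood at 45.4 CPM in Isl1CKO and 263 CPM in control insulin-only cells (−2.53 (−2.71 to −2.36)), Nkx6-1 at 99.4 CPM in Isl1CKO and 299.8 CPM in control insulin-only cells (−1.59 (−1.73 to −1.46)) and Mnx1 at 3.67 CPM in Isl1CKO and 20.9 CPM in control insulin-only cells. Insm1, a zinc finger factor of endocrine differentiation, stood at 75.9 CPM in Isl1CKO and 162 CPM in control insulin-only cells (−1.09 (−1.27 to −0.92)), which makes 4 of 18 measured factors lower. The other 14 were within 2-fold, among them Neurod1 (224 CPM in Isl1CKO and 299 CPM in control insulin-only cells), Pax6 (171 CPM in Isl1CKO and 176 CPM in control insulin-only cells) and Nkx2-2 (93.5 CPM in Isl1CKO and 89 CPM in control insulin-only cells). Prlr, which also sets control insulin-only cells apart, stood at 178 CPM in Isl1CKO and 250.04 CPM in control insulin-only cells (−0.49 (−0.62 to −0.36)).

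By cell, Slc2a2 had a UMI in 41.3% of Isl1CKO and 75.6% of control insulin-only cells (17% and 63.9% thinned). Ucn3 had one in 1.07% of Isl1CKO and 53.2% of control insulin-only cells (0.218% and 32.5% thinned). In the Y-linked cells of both libraries the log2 ratios were −1.88 for Slc2a2, −5.77 for Ucn3 and −2.17 for Pdx1, and in the Xist cells −4.81, −7.89 and −2.76. The Ins1 share of insulin UMIs also differed, with a median of 11.8% in Isl1CKO and 20.04% in control insulin-only cells. It lay outside 10 to 40% in 216 of 467 Isl1CKO cells (46.3%), against 43 of 205 control cells (21.0%). Among cells under 40% insulin the medians were 11.8% in Isl1CKO and 11.8% in control cells. There 208 of 443 Isl1CKO cells (47%) lay outside that range, against 26 of 47 control cells (55.3%). The equal medians pool unlike parts. At 5 to 20% insulin the medians were 12.5% in 322 Isl1CKO and 21.8% in 22 control cells. At 20 to 40% insulin they were 10.4% in 121 Isl1CKO and 8.62% in 25 control cells. Under 40% insulin, Ins1 shares over 50% were found in 6 of 443 Isl1CKO and 6 of 47 control cells. Free RNA had an Ins1 share of 13.5% in the Isl1CKO and 19.3% in the control library.

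The same subsets were taken for the other named genes. Of 60 measured genes named here that were at least 2-fold apart between Isl1CKO and control insulin-only cells, 53 stayed 2-fold in the same direction in Y-linked cells and 54 in Xist cells. The exceptions in Y-linked cells, with their log2 ratios there, were Atp2a3 (−0.56), Egr1 (0.61), Gpd2 (−0.51), Pcsk1 (−0.96), Pde5a (−0.39), Slc30a8 (−0.95) and tdTomato (0.37), so the reporter differed by less than 2-fold in that subset. In Xist cells they were Gast (−1.78), Gc (0.99), Gria2 (−0.04), Insm1 (−0.12), Mnx1 (−0.70) and Spp1 (0.01). Some genes stayed past 2-fold but by unlike amounts, with Pcsk1 at −2.82 in Xist cells and Dlk1 at 1.34 in Y-linked and 4.16 in Xist cells. Without TMM scaling, which shifts every ratio up by 1.02, the differences below 2-fold were Adra2a (−0.45), Atp2a3 (−0.11), Cd79a (−0.75), Ffar1 (−0.95), Gjd2 (−0.48), Gpd2 (−0.28), Insm1 (−0.07), Msln (−0.36), Nkx6-1 (−0.57), Pcsk1 (−0.73), Pde5a (−0.00), Rasgrf1 (−0.63), Sdf2l1 (−0.82) and Slc30a8 (−0.27).

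Because Isl1CKO cells held less insulin, they were also set beside control cells of low insulin content. Under 40% insulin there were 443 Isl1CKO and 47 control cells, with median insulin shares of 12.2% and 23.3%. In CPM of the UMIs outside hormone genes, Slc2a2 gave 120.3 CPM in Isl1CKO and 307 CPM in control cells, a log2 ratio of −1.37 (−1.66 to −1.03). G6pc2 gave 23.6 CPM in Isl1CKO and 199.6 CPM in control cells, a log2 ratio of −3.09 (−3.53 to −2.62). Pdx1 gave 73.2 CPM in Isl1CKO and 307 CPM in control cells, a log2 ratio of −2.08 (−2.40 to −1.73). Nkx6-1 gave 168 CPM in Isl1CKO and 475 CPM in control cells, a log2 ratio of −1.51 (−1.75 to −1.24). All 4 were lower in Isl1CKO by intervals that exclude 0. Prlr gave 301 CPM in Isl1CKO and 165 CPM in control cells, a log2 ratio of 0.84 (0.47 to 1.30), and was higher in Isl1CKO in these cells. Mafa and Cox6a2 had 0 UMIs in both sets, and Ucn3 had 3 in Isl1CKO and 11 in control cells. Of the 55 named genes that could be set beside each other here, 42 stayed at least 2-fold apart in the same direction, and the others were Adra2a (−0.83), Atp2a3 (−0.92), Chgb (0.70), Cpa1 (0.78), Gast (0.98), Gria2 (0.66), Insm1 (−0.94), Pde5a (0.19), Pnlip (−0.37), Prss53 (−0.29), Rasgrf1 (0.47), Slc30a8 (−0.90) and Sytl4 (−0.15). This comparison was chosen after the data were seen, and the median log2 ratio over 10931 genes with at least 20 UMIs in either set was −0.19.

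Secretory genes differed unevenly. Of 17 measured processing and granule genes, 1 was higher and 5 lower. Pcsk1 stood at 87.3 CPM in Isl1CKO and 294 CPM in control insulin-only cells, Slc30a8 at 243 CPM in Isl1CKO and 594 CPM in control insulin-only cells and Scg2, secretogranin 2, at 524 CPM in Isl1CKO and 2875 CPM in control insulin-only cells, all lower in Isl1CKO. Chgb stood at 14069 CPM in Isl1CKO and 4289.8 CPM in control insulin-only cells, the higher gene of the list, and Chga at 30579 CPM in Isl1CKO and 23893 CPM in control insulin-only cells. Among cells under 40% insulin the Chgb log2 ratio was 0.70 (0.66 to 0.74). Abcc8 stood at 46.3 CPM in Isl1CKO and 200.2 CPM in control insulin-only cells (−2.11 (−2.30 to −1.93)), with intervals of −1.23 to −0.77 in Y-linked and −8.27 to −5.81 in Xist cells, whereas Cacna1d stood at 103 CPM in Isl1CKO and 56.7 CPM in control insulin-only cells. Among glucose genes, Txnip, a glucose-induced arrestin, stood at 956 CPM in Isl1CKO and 275 CPM in control insulin-only cells, with its relative Arrdc4 at 311 CPM in Isl1CKO and 13.2 CPM in control insulin-only cells, and Gpi1, phosphoglucose isomerase, at 151 CPM in Isl1CKO and 47.2 CPM in control insulin-only cells. All 3 were higher in Isl1CKO.

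Genes most clearly higher in Isl1CKO included several that were near the floor in control insulin-only cells. Cidea, a lipid droplet protein, stood at 119.6 CPM in Isl1CKO and 1.46 CPM in control insulin-only cells, Slc5a10, a sugar transporter, at 60.7 CPM in Isl1CKO and 1.1 CPM in control insulin-only cells, Ptger3, a prostaglandin E2 receptor, at 107 CPM in Isl1CKO and 4.03 CPM in control insulin-only cells and Dlk1, an imprinted Notch-related ligand, at 134 CPM in Isl1CKO and 7.32 CPM in control insulin-only cells. Ttr stood at 14166 CPM in Isl1CKO and 2799.8 CPM in control insulin-only cells and Gc, the vitamin D binding protein, at 229 CPM in Isl1CKO and 37.7 CPM in control insulin-only cells. Pnoc, prepronociceptin, stood at 41.3 CPM in Isl1CKO and 1.1 CPM in control insulin-only cells, and Cartpt, another neuropeptide gene, at 173 CPM in Isl1CKO and 15.4 CPM in control insulin-only cells. All 8 measured acinar markers were higher in Isl1CKO insulin-only cells (median 3.24), and the 10 listed genes summed to 691 CPM, against 64.1 CPM in control cells. Of the acinar UMIs in Isl1CKO cells 52.4% came from 1 cell, without which the sum was 329 CPM. Among cells under 40% insulin the log2 ratio was −0.37 for the lipase gene Pnlip, with an interval that includes 0. It was 0.78 (0.02 to 1.99) for the carboxypeptidase gene Cpa1. The other listed acinar genes were at least 2-fold higher there: Cela2a 2.61, Try5 2.53, Cel 2.39, Ctrb1 2.12, Cpb1 1.80, Prss2 1.78, Clps 1.49 and Cela3b 1.10. Their control UMIs ran from 0 for Cel to 31 for Ctrb1. The cell with 52.4% of the acinar UMIs held 5.49% insulin, so it is in this comparison. In free RNA, the acinar gene Prss2 gave 0.125% of UMIs in the Isl1CKO and 0.00447% in the control library. Ttr gave 3.17% in the Isl1CKO and 0.993% in the control library, and tdTomato 0.611% and 0.126%. The part of free RNA in the acinar, Ttr and tdTomato differences was not tested. tdTomato stood at 2886 CPM in Isl1CKO and 1124 CPM in control insulin-only cells.

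Gcg, Sst, Ppy and Pyy were lower in Isl1CKO insulin-only cells, although the rule held the first 3 below 5% in both libraries. Gcg stood at 53.8 CPM in Isl1CKO and 3697 CPM in control insulin-only cells, Sst at 0.42 CPM in Isl1CKO and 3323 CPM in control insulin-only cells, Ppy at 7.66 CPM in Isl1CKO and 3409 CPM in control insulin-only cells and Pyy at 9.13 CPM in Isl1CKO and 7267 CPM in control insulin-only cells, while Gcg gave 0.0739% of free RNA in the Isl1CKO and 15.9% in the control library. Of the control insulin-only cells, 8 had at least 1% Sst, 3 at least 1% Gcg and 19 at least 1% Ppy. Median shares of Sst, Gcg and Ppy were 0.00963, 0.0582 and 0.0357% of UMIs in control and 0 in Isl1CKO insulin-only cells. The control sums therefore do not describe the typical cell. The part of free RNA in the difference was not tested. Gastrin and cholecystokinin went the other way: Gast stood at 32.7 CPM in Isl1CKO and 4.03 CPM in control insulin-only cells (2.90 (2.16 to 4.04)). Cck had 78 UMIs in Isl1CKO and 0 in control insulin-only cells, at least 7.45-fold higher but below the limit for a measured gene. Its log2 ratio was 0.51 in Y-linked and −2.36 in Xist cells, both with intervals that include 0, so a higher level was not seen in either subset. Npy (61 control UMIs, 83.6% in 1 cell), Sparc and Ube2c had 0, 0 and 1 UMIs in Isl1CKO, but their control counts rested on 1 or 2 cells. Dapl1, with 157 UMIs in 39 control insulin-only cells, had 0 in Isl1CKO, at least 183-fold lower. At least 3 cell cycle genes were found in 1 of 467 Isl1CKO cells, against 7 of 205 control cells, and in 0 of 458 against 3 of 191 after thinning.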

How the data were processed

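The deposited values are whole-number counts of UMIs per gene and barcode, unfiltered, from 10x 3′ v3.1 libraries; STARsolo (STAR 2.7.3a), Seurat 4.3.0.1 and GRCm38.p6 are named per the submitters' processing notes, with parameters and annotation release not given in the sources used here. The members and gene lists were chosen with earlier results of these data known. Cells needed 1000 UMIs, 500 genes and at most 15% mitochondrial UMIs, and hormone groups were set as described above. UMIs were summed per group over 46984 features and scaled by TMM (edgeR 4.0.16) fitted jointly over 5 groups. A log2 ratio adds 1 to each summed count, and intervals are exact conditional Poisson for ratios and Clopper-Pearson for shares. PCR duplicates are collapsed by UMI, so intervals cover counting error only. The ratio calculation was tested on simulated counts. The 3′ counting gives no isoforms, and reads shared by Ins1 and Ins2 could be split or dropped in a way not stated. Doublets were marked by Scrublet in scanpy 1.11.5 and kept, thinned counts used 2000 UMIs outside 8 hormone genes, and free RNA was read from barcodes of 10 to 100 UMIs. Genes named by rule were the 20 highest and lowest shared by the 3 control comparisons, 8 per control comparison, 12 for Isl1CKO over control, the 15 most variable, and list members; of these, those with clear or contrasting values are printed. DESeq2 1.42.0 size factors and other settings were alternatives. Some genes are not reported here. Motifs were searched in the RefSeq windows by exact letters.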

Additional observations from a re-analysis of the deposited data

Results flagged for a closer look

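Spp1, the duct marker, went opposite ways over somatostatin-only cells by sex-linked transcripts: the log2 ratio was 2.37 in cells with Y-linked UMIs and −1.76 in cells with Xist UMIs, a difference that was not tested. Of the 522 Spp1 UMIs in insulin-only cells, 90.8% came from 1 cell. That cell carried Y-linked UMIs without Xist, so it is among the Y-linked cells and not among the Xist cells. Without it the log2 ratio over all somatostatin-only cells was −1.89.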

How the results depend on the processing

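No paired analysis was possible because the libraries share only replicate number 3. Counts of genes at least 2-fold higher and lower in insulin-only cells over glucagon-only, somatostatin-only and PP-only cells became 112 and 1393, 60 and 3371, and 110 and 376 without TMM scaling, which moved the median of all genes; at a minimum of 5 CPM they were 632 and 733, 484 and 620, and 565 and 560, and at 50 CPM 188 and 155, 114 and 110, and 124 and 69, as more or fewer genes were tested. In Xist cells alone the counts that moved were 204 higher over glucagon-only, 152 higher and 370 lower over somatostatin-only, and 171 higher and 292 lower over PP-only cells. Isl1CKO over control gave 2966 higher and 54 lower without TMM scaling, 794 and 541 at 5 CPM, 156 and 122 at 50 CPM, 714 higher in Xist cells and 420 lower with totals that left out hormone genes. The cause was not tested where no tested-gene number changed. Other settings (DESeq2 size factors, a pseudocount of 0.5, the mean over cells, at least 3000 UMIs, other hormones under 1%, an own hormone of at least 10%, no Scrublet doublets, Y-linked cells) left these counts within 1.5 times. Among measured genes named here, the sign without TMM scaling turned for 8 of 83, 13 of 81 and 7 of 81 genes over glucagon-only, somatostatin-only and PP-only cells and for 13 of 89 in Isl1CKO over control, all within 2-fold in the scaled ratio but Pdx1. Prlr in Isl1CKO over control was 0.84 among cells under 40% insulin. The differences of at least 2-fold that turned sign were these. Over somatostatin-only cells Pdx1 was −0.03 without TMM scaling, Npy −0.27 in Xist cells, and Spp1 −1.80 with insulin at least 10%, −1.76 in Xist cells and −1.70 with insulin at least 40%. Over PP-only cells Irx2 was 0.37 and Pnoc 0.86 in Xist cells. For Isl1CKO over control the alpha marker median was −0.44 at 5 CPM, Gria2 −0.04 in Xist cells, Spp1 1.10 with insulin at least 10% and 0.01 in Xist cells, Gast −1.78 in Xist cells, Pnlip −0.57 with insulin at least 10%, and Pde5a 0.19, Rasgrf1 0.47 and Pnlip −0.37 among cells under 40% insulin. In these settings the intervals of Pdx1, Npy, Irx2, Pnoc, Gria2, Gast, Pde5a and Rasgrf1 span both signs, so a reversal is not shown for them. The same holds for Spp1 in Isl1CKO over control in Xist cells and for Pnlip among cells under 40% insulin. Depth limits Mafa and Glp1r, with 29 and 16 UMIs over all insulin-only cells, and the 27 Xist cells.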

Other observations

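Immediate early genes, which respond to stimulation and to handling, were in part lower in insulin-only than in glucagon-only cells. Actinomycin D, a transcription inhibitor, was present while the islets were isolated, per the labels' protocols. Of the measured genes, 4 of 7 were at least 2-fold lower than in glucagon-only cells, 0 of 4 than in somatostatin-only cells and 1 of 5 than in PP-only cells, and 0 were higher (medians −1.04, −0.17 and −0.71). Jun, a subunit of AP-1, stood at 24.5 CPM in insulin-only cells, against 111, 36.1 and 166 CPM in glucagon-only, somatostatin-only and PP-only cells. Fos, its partner, stood at 6.22 CPM in insulin-only cells, against 26.3, 4.35 and 18.2 CPM in glucagon-only, somatostatin-only and PP-only cells. Against somatostatin-only cells both were within 2-fold. Egr1, an early growth response factor, stood at 61.6 CPM in Isl1CKO and 8.79 CPM in control insulin-only cells, and Jun at 14.6 CPM in Isl1CKO and 24.5 CPM in control insulin-only cells.

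Imprinted genes showed no common direction. Of 12, 10 and 10 measured genes, 2, 0 and 3 were at least 2-fold higher and 4, 2 and 2 lower than in glucagon-only, somatostatin-only and PP-only cells. Over all measured genes 7.21, 5.07 and 5.63% were higher and 6.07, 4.97 and 3.95% lower. Gnas, the stimulatory G protein subunit, stood at 1451 CPM in insulin-only cells, against 5679, 2288 and 2209 CPM in glucagon-only, somatostatin-only and PP-only cells. Rasgrf1, a Ras exchange factor, stood at 31.5 CPM in insulin-only cells, against 2.38, 34.2 and 5.05 CPM in glucagon-only, somatostatin-only and PP-only cells. Meg3, a maternally expressed noncoding RNA, stood at 469 CPM in insulin-only cells, against 739.99, 546 and 430.1 CPM in glucagon-only, somatostatin-only and PP-only cells, and all 3 log2 ratios were within 2-fold. Among D cyclins, Ccnd2, the main D cyclin of beta cells, stood at 543 CPM in insulin-only cells, against 478, 473 and 346 CPM in glucagon-only, somatostatin-only and PP-only cells, likewise within 2-fold in all 3 comparisons.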
